A study of Drosophila melanogaster with 2 samples.

Results

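The genes of the retinal determination network and the homothorax partner pair were examined for sites of Groucho in the Drosophila melanogaster embryo. They are 9 named genes: ey, toy, so, eya, dac, eyg, toe, hth and exd. A region was assigned to a gene when its summit lay in the gene or within 5 kb of its ends, in the dm6 build. This gave 106 of the 30000 regions in the authors' list from pooled replicates. Of those 106, 13 were also among the 4492 regions of the authors' list thresholded by the irreproducible discovery rate (IDR). That rate measures how alike regions rank in separate replicates. Of all pooled regions 15.0% were in the list. It held exactly the pooled regions of highest signal, so a region in it need not rank alike in both replicates. These 13 are called IDR peaks here. By its deposited name the pooled list holds both peaks and background, so a region outside the IDR list may be background. The deposited −log10 q, where higher means a stronger call, was 0.360 at the member region of lowest signal. At a member region of signal 33.0, near the member median, it was 0.669.

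Groucho was measured by ChIP-seq in whole embryos of mixed sex, 0 to 24 h old, from transgenic flies carrying a gro insertion with GFP joined to the C-terminus of the protein. Chromatin was sonicated to fragments of 200 to 800 bp and precipitated with an antibody against GFP, so the tagged protein was the one recovered. The only group held 2 biological replicates, numbered 1 and 3 in the labels, and there was no other genotype, treatment or time. The embryos were whole and span nearly all of embryonic development, so a region may come from any tissue or stage, and region lists carry no expression by which the cells could be checked. The labels do not say whether untagged Groucho was also present, and no control library was analysed here.

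Groucho is a corepressor that does not bind DNA itself and is brought to genes by DNA-binding repressors, among them Hairy-class, Runt and sine oculis class proteins. In the eye primordium the Pax6 proteins Toy and Ey activate so and eya, whose products, a homeodomain protein and its coactivator phosphatase, act together and with the nuclear cofactor Dac. Eyg and Toe are Pax proteins with a shortened paired domain that promote growth of the eye, whereas Hth, a TALE homeodomain protein, carries its partner Exd into the nucleus, serves with it as a cofactor of Hox proteins, and holds back eye development.

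The windows around the summits that carry the results are shown first, 100 bp on each side of the summit, on the strand of the gene, from RefSeq Release 6 (dm6). Capitals mark matches to the searched motifs described further on. At ey, the peak 805 bp upstream of the start held the DRE word, and the window of the promoter peak, shown only up to the transcription start, held the word bound by So. Both lie in the same stretch between ey and its divergent neighbour myo.
ey upstream, chr4:696784-696984, plus strand: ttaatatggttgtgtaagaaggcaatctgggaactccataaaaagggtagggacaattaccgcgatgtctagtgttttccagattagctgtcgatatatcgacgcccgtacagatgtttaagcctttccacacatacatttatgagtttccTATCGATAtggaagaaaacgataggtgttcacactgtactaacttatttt
ey promoter, chr4:697532-697688, plus strand: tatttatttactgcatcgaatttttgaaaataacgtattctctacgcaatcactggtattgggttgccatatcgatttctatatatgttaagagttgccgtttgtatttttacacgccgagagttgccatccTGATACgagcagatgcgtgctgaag
For dac and eyg the highest peaks of the whole set are shown. The dac window held a Cic word near its end, and the eyg window held a Runt word and a GAGA word.
dac upstream, chr2L:16487661-16487861, minus strand: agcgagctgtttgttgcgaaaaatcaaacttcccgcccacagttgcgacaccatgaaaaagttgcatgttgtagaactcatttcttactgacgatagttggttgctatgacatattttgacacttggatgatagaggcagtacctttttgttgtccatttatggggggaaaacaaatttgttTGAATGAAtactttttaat
eyg promoter, chr3L:12468076-12468276, minus strand: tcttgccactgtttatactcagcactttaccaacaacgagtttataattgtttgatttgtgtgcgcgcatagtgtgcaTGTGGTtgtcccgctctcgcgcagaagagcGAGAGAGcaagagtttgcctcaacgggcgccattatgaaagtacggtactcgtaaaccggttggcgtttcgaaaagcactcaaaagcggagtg
For hth, the highest intronic peak is shown with its Zelda and GATA words, and then both peaks that held the word bound by Hth itself. One of these lies at the inner promoter and the other upstream of the whole gene.
hth intron, chr3R:10566939-10567139, minus strand: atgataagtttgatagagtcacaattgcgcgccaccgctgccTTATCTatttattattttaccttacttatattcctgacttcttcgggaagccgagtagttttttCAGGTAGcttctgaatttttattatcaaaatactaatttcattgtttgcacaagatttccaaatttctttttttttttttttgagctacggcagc
hth inner promoter, chr3R:10614419-10614619, minus strand: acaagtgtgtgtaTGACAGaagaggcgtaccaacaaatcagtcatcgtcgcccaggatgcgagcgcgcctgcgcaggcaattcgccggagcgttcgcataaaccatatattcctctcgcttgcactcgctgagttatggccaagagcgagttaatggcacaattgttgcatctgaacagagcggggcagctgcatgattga
hth upstream, chr3R:10643208-10643408, minus strand: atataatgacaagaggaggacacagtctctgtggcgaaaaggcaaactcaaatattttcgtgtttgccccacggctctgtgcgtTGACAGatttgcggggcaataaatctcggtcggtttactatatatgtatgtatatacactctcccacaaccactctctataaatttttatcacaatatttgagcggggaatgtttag

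Over the whole series the pooled list held 30000 regions with signals from 21.4 to 1892 and a median of 37.0, and the IDR list held exactly the pooled regions of highest signal, down to 80.6. The share of pooled regions in the IDR list was 15.0%. Signals in replicate 1 ran from 12.3 to 741 and in replicate 3 from 12.1 to 1154, with medians of 20.9 and 20.4. The signal is the authors' own value on an unstated scale, and pooled and replicate signals are not on the same scale. The lists give no read counts, and the sequencing depth of either library is therefore unknown.

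IDR peaks of Groucho were found at 5 of the 9 genes: ey, eya, dac, eyg and hth. Of the 13945 protein-coding genes, 49.4% held an IDR peak by the same rule, a share close to that of the members. They were modest: the 13 peaks ran from 82.2 to 137 in pooled signal, with a median of 99.0 beside 116 for all IDR peaks, and the best ranked 1527th of the pooled list. No IDR peak was listed at toy, so, toe or exd, and at toe no region of any list was assigned. The 106 member regions had a median pooled signal of 33.0, and 12.3% of them were IDR peaks (Wilson 95% interval 7.31% to 19.9%, counting error only), beside 15.0% of all pooled regions. For genes, 8 of 9 held a pooled region, beside 76.9% of all protein-coding genes.

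The regions were unevenly spread among the genes. The long gene hth held 63 of the 106, or 59.4%, and 7 of the 13 IDR peaks. Without hth, 43 regions with 6 IDR peaks (14.0%) were left for the other 8 genes, so the share of IDR peaks was near that of the pooled list with hth and without it. The median protein-coding gene held 4 pooled regions. The plot of pooled signal by gene shows the same spread against the IDR limit.

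**Figure D1:**
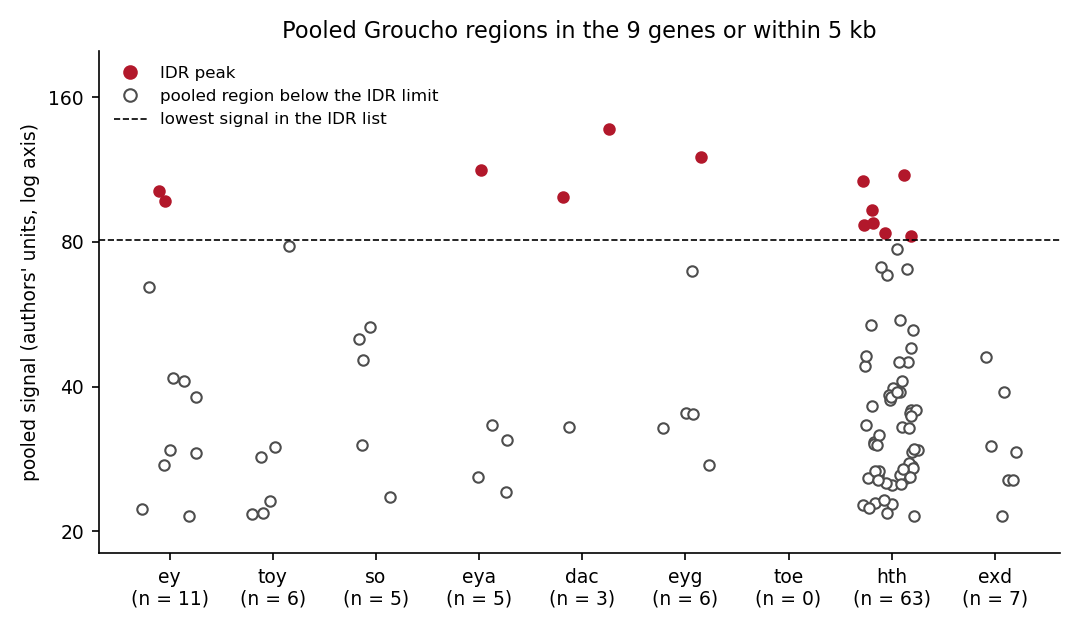
Pooled signal in the authors' units (log axis) of each of the 106 pooled regions, grouped by gene, with IDR peaks filled and other regions open. The dashed line is the lowest signal of the IDR list, 80.6; hth holds 63 of the regions, toe holds none, and the highest toy region sits just under the line.

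The Pax6 genes ey and toy lie apart on chromosome 4, a small arm on which 476 pooled regions and 18 IDR peaks were listed (3.78%). The ey locus held 2 of those 18. The gene ey (FBgn0005558, 4:697689-721173, plus strand) had 11 pooled regions within the gene and its flanks. Its highest was an IDR peak at chr4:696679-697088 with a pooled signal of 102, intergenic and 805 bp upstream of the outer ey transcription start. It gave 50.4 in replicate 1 and 52.1 in replicate 3, or 51.3 ± 1.19 (SD, n = 2), so the replicates were nearly equal.

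The second ey peak, at chr4:697427-697836, had its summit 57 bp upstream of that start and a pooled signal of 97.5. It gave 70.9 in replicate 1 and 28.1 in replicate 3, or 49.5 ± 30.2 (SD, n = 2). The replicates differed by 2.52 times here, the widest gap among the 13 IDR peaks, and the peak was far down the list in replicate 3, at rank 9116 against rank 1339 in replicate 1. The order of the ey peaks was thus not the same in both replicates: the upstream peak was the higher in replicate 3 and the lower in replicate 1.

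The remaining 9 ey regions stayed under the limit, and most lay toward or in the neighbouring genes. On the side of myo, which encodes the TGF-beta family ligand Myoglianin, a region in the myo 5′ UTR had a pooled signal of 64.5, with 39.7 in replicate 1 and 24.8 in replicate 3. Another lay 13 bp upstream of the myo start with a pooled signal of 38.0. The starts of ey and myo are 1633 bp apart and point away from each other, so the whole stretch between them held 3 summits. On the far side, 2 of the 3 downstream regions lay within 500 bp of a start of bt, a giant muscle protein gene, with pooled signals of 22.2 and 41.2. In the body of ey only 2 weak regions were listed, at 21.5 and 27.5, the latter 516 bp upstream of an inner ey start.

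At toy (FBgn0019650, 4:989725-1007922, plus strand), the Pax6 gene that acts upstream of ey, 6 pooled regions were listed and none was an IDR peak. The highest, chr4:989376-989785, had its summit 144 bp upstream of the single toy start and a pooled signal of 78.6. It gave 35.8 in replicate 1 and 39.3 in replicate 3, or 37.6 ± 2.50 (SD, n = 2). Its pooled signal was 97.5% of the IDR limit, 2.03 units below it, the nearest miss of all member regions. The other 5 toy regions ran from 21.8 to 30.0, and only 1 of them was found in both replicates. Taken over both Pax6 genes, 17 regions had a median of 29.5, beside 30.5 for all pooled regions on chromosome 4.

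The map of the other 8 genes shows that IDR peaks, where present, stood at or outside the gene ends.

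**Figure D2:**
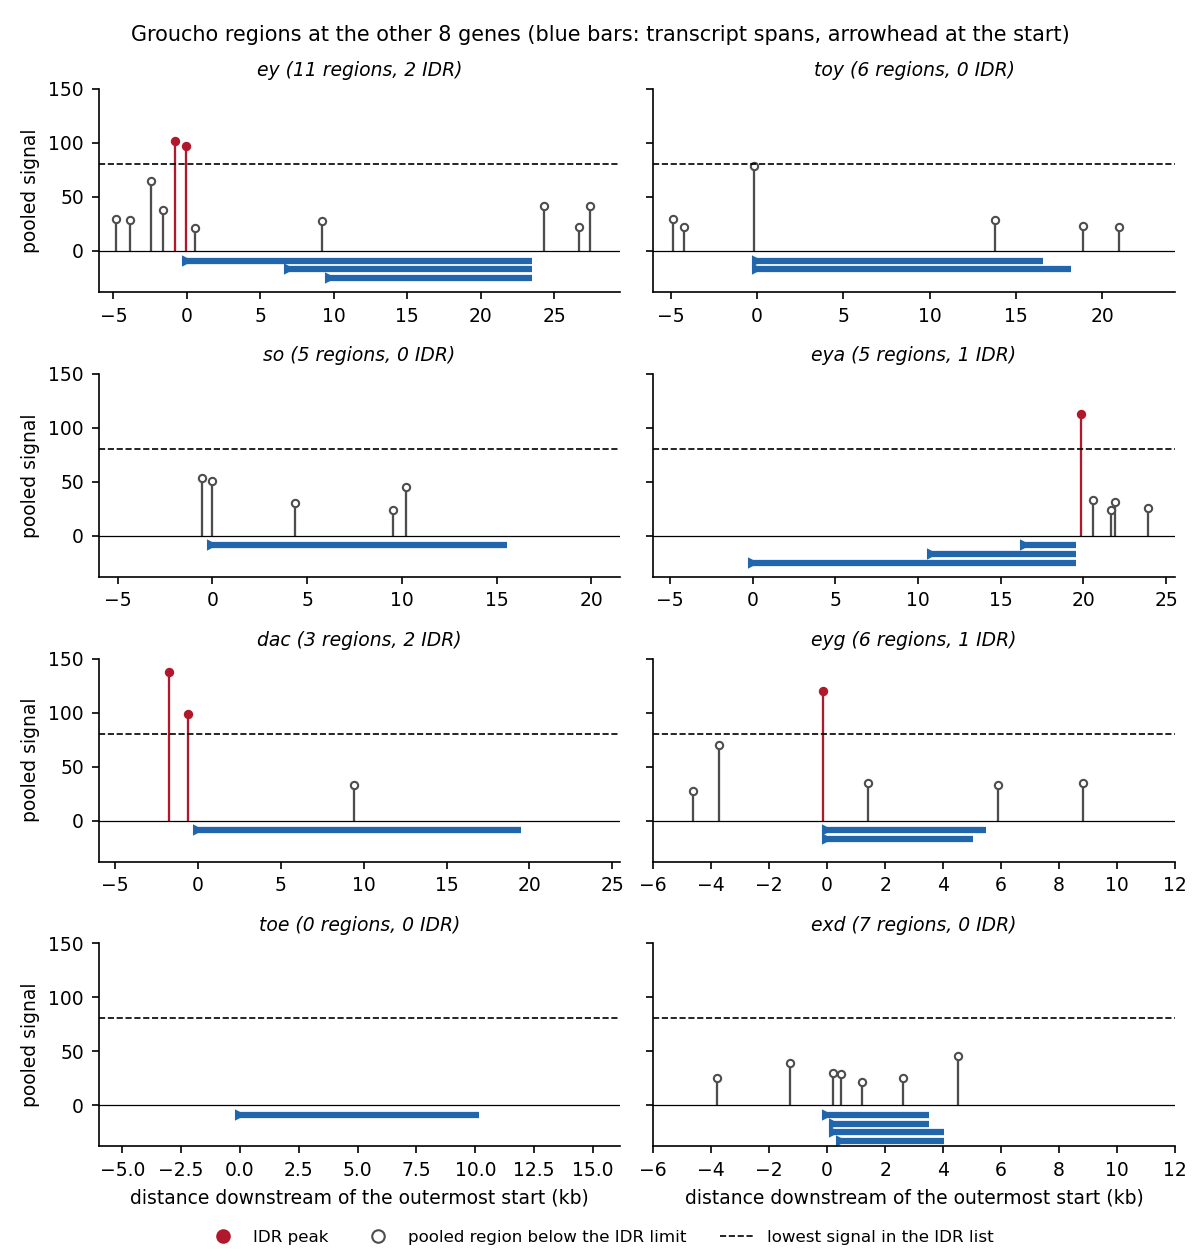
Pooled signal in the authors' units against distance from the outermost transcription start of each gene, in kb along the direction of transcription, for the 8 genes other than hth. Filled points are IDR peaks, open points are other pooled regions, the dashed line is the IDR limit and blue bars are transcript spans; the 6 IDR peaks of ey, eya, dac and eyg all lie outside the transcribed spans, and toe is empty.

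The genes so and eya encode the homeodomain protein Sine oculis and its partner Eyes absent. At so (FBgn0003460, 2R:7419350-7434872, plus strand) 5 pooled regions were listed with no IDR peak. The highest lay 564 bp upstream of the only so start with a pooled signal of 53.3, from 23.8 in replicate 1 and 35.5 in replicate 3. A second one at the start itself, 26 bp upstream, had 50.3, from 25.6 and 28.6. Both so promoter regions were thus found in each replicate, higher in replicate 3, and neither came within 20% of the IDR limit. Within the gene, a region in an exon of the noncoding gene lncRNA:CR44203 had 45.3, from 30.3 and 14.0, and 2 further intronic regions, of 30.2 and 23.5, were found in replicate 1 alone.

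No region of the pooled list lay inside eya (FBgn0000320, 2L:6527447-6546976, minus strand) or at any of its 3 starts. Its IDR peak, chr2L:6526914-6527323, was intergenic and 328 bp past the 3′ end of the gene, 3390 bp from the nearest eya start. The pooled signal was 113, with 52.0 in replicate 1 and 62.7 in replicate 3, or 57.4 ± 7.52 (SD, n = 2). Both replicates ranked it among their own 4492 highest regions. The other 4 eya regions lay in the neighbouring gene CG31637, with pooled signals from 24.1 to 33.2, so the eya count rests on its downstream flank entirely.

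The gene dac (FBgn0005677, 2L:16466512-16485998, minus strand), which encodes the nuclear cofactor Dachshund, had only 3 pooled regions but 2 of them were IDR peaks. The higher, chr2L:16487556-16487965, had the highest pooled signal of all 106 member regions at 137. It gave 73.8 in replicate 1 and 61.7 in replicate 3, or 67.8 ± 8.55 (SD, n = 2). This peak was 1763 bp upstream of the dac start but only 387 bp upstream of the start of Nepl8, a neprilysin-like peptidase gene, and it is the only member IDR peak whose nearest start is not that of its own gene. The peak nearer dac, chr2L:16486380-16486789 and 587 bp upstream, had a pooled signal of 99.0 from 59.2 in replicate 1 and 42.9 in replicate 3, or 51.0 ± 11.5 (SD, n = 2).
In each replicate the distal dac peak was the higher, and the lower of its replicate values, 61.7, was above the higher value of the proximal peak, 59.2. Inside the gene, a single intronic region of 33.0 was listed, with 23.5 in replicate 3 and no region over its summit in replicate 1. The replicate lists held 7 regions each at dac, against 3 in the pooled list.

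The paired-domain neighbours eyg and toe differed in every list. At eyg (FBgn0000625, 3L:12462537-12468021, minus strand) an IDR peak, chr3L:12467971-12468380, sat 155 bp upstream of the single start with a pooled signal of 120.2, the second highest of the member regions. It gave 67.2 in replicate 1 and 52.4 in replicate 3, or 59.8 ± 10.5 (SD, n = 2). A region of 69.5 lay 24 bp inside the start of the next gene, CG10616, with 45.6 in replicate 1 and 22.5 in replicate 3. The other 4 eyg regions ran from 27.4 to 35.2, 1 of them in an eyg intron. At toe (FBgn0036285, 3L:12422510-12432668, minus strand), 29868 bp from eyg, the pooled list, the IDR list and both replicate lists had no summit in the gene or within 5 kb. The nearest pooled summit lay 7604 bp beyond the toe 3′ end, with a signal of 68.2, and on the side of eyg the nearest was 26529 bp away. The nearest summit was 7617 bp away in replicate 1, with a signal of 21.7, and 5817 bp away in replicate 3, with 25.8. Each list stops at a lowest signal, so weaker recovery at toe would not appear in it.

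The gene hth (FBgn0001235, 3R:10507561-10639568, minus strand) had by far the most pooled regions of the members. It spans 132 kb and held 63 pooled regions, 69 regions of replicate 1 and 65 of replicate 3, and ranked 12th of all protein-coding genes by pooled regions. Of the 63, 7 were IDR peaks, and the rest may be background. At the hth region of median signal, 33.3, the −log10 q was 0.678. Some of the 63 regions overlap, and they merged into 56 separate intervals. Per length the gene stood out less, with 4.44 regions per 10 kb of gene and flanks at percentile 67.2 of protein-coding genes, against a median gene at 2.82. Of the summits within the gene, 60 of 61 were in introns, 1 was in a 5′ UTR and none was in coding sequence.

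The gene has 5 annotated transcripts and a pair of starts 25292 bp apart, an outer one at 10639568 and an inner one at 10614276. The starts and the transcript ends divide the gene into 3 stretches. Between the starts, 25.3 kb held 10 regions with 2 IDR peaks, at 3.95 regions per 10 kb. From the inner start to the end of the short transcripts, 32.9 kb held 19 regions with 2 IDR peaks, at 5.78 per 10 kb. The remaining 73.8 kb, covered only by the 2 long transcripts, held 32 regions with 2 IDR peaks, at 4.33 per 10 kb. Pooled regions, most of them below the IDR limit, were therefore spread over most of the gene, including the part that only the long transcripts reach. The median gap between neighbouring summits was 1247 bp and the longest 9243 bp, and the last 13082 bp before the 3′ end held none.

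**Figure D3:**
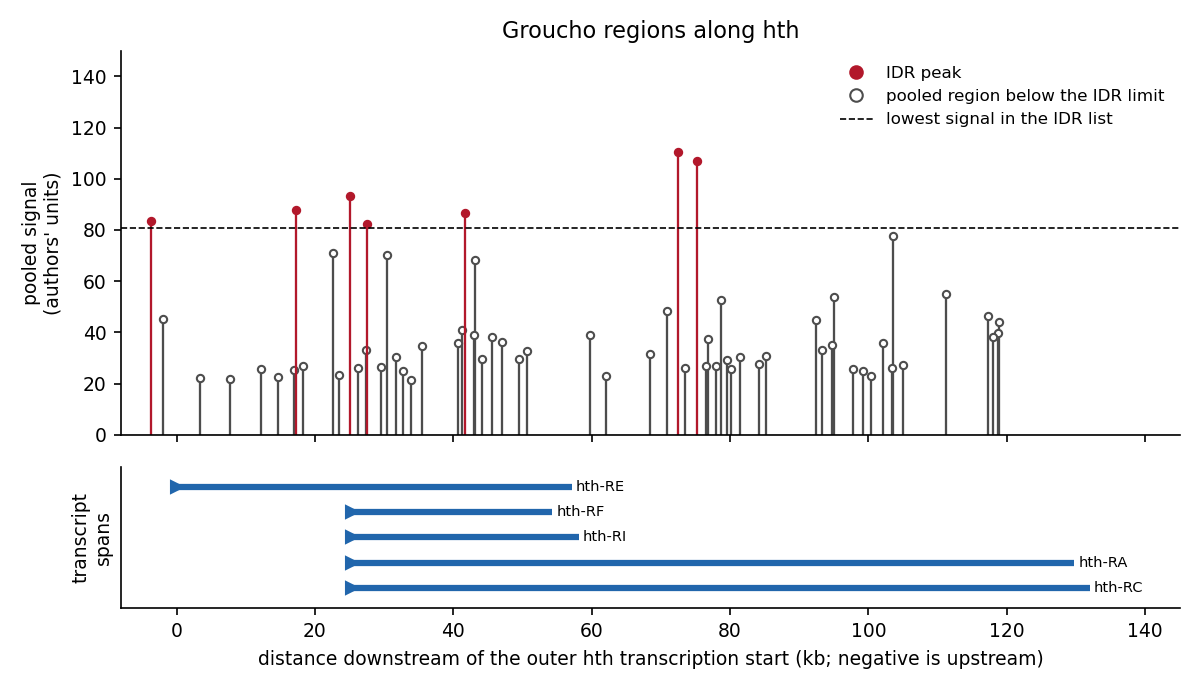
Pooled signal in the authors' units of the 63 hth regions against distance from the outer hth start in kb, along the direction of transcription, with the 5 transcript spans below. Filled points are the 7 IDR peaks and the dashed line is the IDR limit; the highest peaks, at 110.4 and 107, stand far inside the gene, and only 1 peak stands at a start.

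The highest hth peak, chr3R:10566834-10567243, lay in an intron 47237 bp downstream of the inner start and had a pooled signal of 110.4. It gave 54.0 in replicate 1 and 54.9 in replicate 3, or 54.4 ± 0.632 (SD, n = 2). Close by, chr3R:10564200-10564609 had 107, from 43.0 and 65.5, or 54.2 ± 16.0 (SD, n = 2), and lay 49871 bp from the same start. Both were in the long-transcript part of the gene, and their replicate means differed by less than the spread of the second.

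The peak at the inner start, chr3R:10614314-10614723, had its summit 243 bp upstream and a pooled signal of 93.2. The regions over that summit gave 64.2 in replicate 1 and 40.6 in replicate 3, or 52.4 ± 16.7 (SD, n = 2). In replicate 3 a stronger region of 45.7 overlapped the peak, but its summit lay 301 bp away, on the other side of the start. The peak was the only pooled hth region within 500 bp of a start of any gene. A peak 2260 bp downstream of this start, chr3R:10611811-10612220, was the weakest member IDR peak at 82.2, with 38.8 in replicate 1 and 39.6 in replicate 3, or 39.2 ± 0.546 (SD, n = 2). The replicates were close there, yet neither ranked it among its own 4492 highest regions.

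The other 3 hth peaks lay at 86.8, 87.7 and 83.6 in pooled signal. The intronic one at chr3R:10597631-10598040, 16440 bp downstream of the inner start, gave 35.7 in replicate 1 and 51.9 in replicate 3. Another at chr3R:10622132-10622541, between the starts and 8061 bp upstream of the inner one, gave 36.2 and 46.1. Both were higher in replicate 3. The last, chr3R:10643103-10643512, was 3740 bp upstream of the outer start, in an exon of the antisense noncoding gene asRNA:CR44018, and gave 52.5 and 29.2, so it was higher in replicate 1. No IDR peak and no pooled region was found at the outer hth start itself, where the nearest pooled summits were 1887 bp upstream and 3411 bp downstream. Replicate 1 listed a weak region just inside that start, chr3R:10638871-10639280, with a signal of 13.3. It overlapped no pooled region and no region of replicate 3.

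Below the limit, 4 hth regions came within 20% of it, at 77.5, 70.8, 70.4 and 68.4. The region of 77.5 gave 51.6 in replicate 1 and 32.5 in replicate 3, so it was higher in replicate 1. The region of 68.4 gave 54.7 in replicate 1, and in replicate 3 no region lay over its summit. With toy and the CG10616 region beside eyg they make 6 member regions within 20% below the limit, and 5 hth peaks lay within 20% above it, at 82.2, 83.6, 86.8, 87.7 and 93.2. Of the other peaks, the nearest to the limit were the ey promoter peak at 121% of it and the proximal dac peak at 123%, just past this range. The shares of all pooled regions and IDR peaks so near the limit were not computed. The counts near it can therefore not be called particular to these genes.

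Among long genes hth stood near the top. Of the 83 protein-coding genes spanning 100 kb or more, hth ranked 7th by pooled regions and 6th by regions per 10 kb, and tied for 5th by IDR peaks. The median of these long genes was 15 pooled regions, 1 IDR peak and 1.06 regions per 10 kb, with densities from 0 to 6.87, as the plot of density against span shows.

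**Figure D4:**
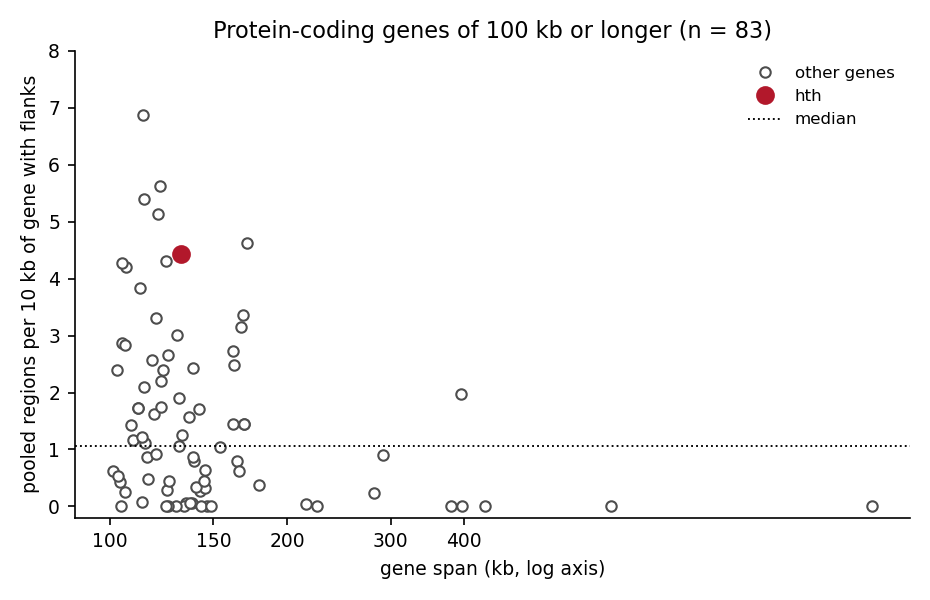
Pooled regions per 10 kb of gene and flanks against gene span in kb (log axis) for the 83 protein-coding genes of 100 kb or longer, with hth filled. The dotted line is their median of 1.06; hth stands at 4.44, the sixth highest.

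The protein-coding genes whose counts in the 4 lists and span were most like those of hth, by Euclidean distance on the log2 scale, were Glut4EF, CG46467 and Svil. Their distances were 0.25, 0.30 and 0.53. Glut4EF held 67 pooled regions and 6 IDR peaks over 121 kb, CG46467 held 67 and 6 over 114 kb, and Svil held 74 and 10 over 122 kb.

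The gene exd (FBgn0000611, X:15992468-15996509, plus strand), which encodes the TALE partner of Hth, is short and held 7 pooled regions and no IDR peak. The highest reached 57.2% of the IDR limit, with a −log10 q of 1.25. At 4.99 per 10 kb exd had the highest density of pooled regions of all members, but all of them were below the limit and may be background. The highest region, of 46.1, lay past the 3′ end and 36 bp upstream of the start of CG8939, with 30.2 in replicate 3 and no region over its summit in replicate 1. At starts of exd itself, a region of 30.1 was found in replicate 3 alone, at 20.0, and one of 29.2 gave 25.0 in replicate 1 and 13.8 in replicate 3. The other 4 ran from 21.6 to 39.0, the highest of them 772 bp inside CG46312. Thus hth and exd, whose proteins work as a pair, differed in count, in highest signal and in IDR peaks.

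The place of the regions relative to genes differed between hth and the rest. Of the 106 regions, 73 lay in the gene, 20 upstream and 13 downstream, while the 13 IDR peaks were split 6, 6 and 1, all 6 in the gene being those of hth. Within 500 bp of a transcription start of any gene lay 15 regions (14.2%), beside 34.5% of all pooled regions. Of these 15, 7 were at a start of the member gene and 8 at that of a neighbour. For IDR peaks the count was 4 of 13 (30.8%), beside 62.6% of all IDR peaks. Without hth the share of regions at a start was 14 of 43, or 32.6%, close to that of all pooled regions. At hth it was 1 of 63, or 1.59%.

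Distances told the same. The median summit of the member regions was 7499.5 bp from the nearest start, beside 1137.5 bp for all pooled regions. It was 18801 bp for hth and 801 bp without hth. Over 5 kb from any start lay 62 regions (58.5%), beside 18.7% of all pooled regions. The class of intron took 65.1% of member regions, beside 43.1% of the pooled list. For 25 of the 63 hth regions the nearest annotated start was that of the microRNA gene mir-4944 and for 3 that of asRNA:CR44018, so the nearest start of any kind was that of hth for 35. When protein-coding starts alone were counted, 84 of the 106 member regions were nearest a start of their own gene, and 12 of the 13 IDR peaks were.

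Both replicates entered the pooled and IDR lists, so their values describe the peaks and are no independent test. Of the 106 regions, 69 (65.1%) overlapped a region of each replicate list, beside 70.9% of all pooled regions. A further 18 were found in replicate 1 alone, 17 in replicate 3 alone and 2 in neither. Of all 30000 pooled regions the counts were 4070, 3970 and 705 in that order. All 13 IDR peaks were found in both, as were 99.6% of all IDR peaks. Among the 69, replicate 1 was higher at 34 and replicate 3 at 35, with a median log2 ratio of replicate 3 to replicate 1 of 0.02 and a range from -1.51 to 1.04. Neither replicate was thus higher on the whole. At 15 of the 69 a matched replicate region did not contain the pooled summit and may be another site. When each replicate region had to contain it, 61 regions were left, 31 higher in replicate 1 and 30 in replicate 3, beside 59.3% of all pooled regions found in both by that rule. Of the 69, 14 of the 69 shared both replicate regions with an overlapping member region and are not separate values.

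Of the 13 IDR peaks, 7 were higher in replicate 3, beside 64.3% of all IDR peaks found in both. Among each replicate's own 4492 highest regions were 10 of the 13 in replicate 1 and 9 in replicate 3, 7 in both, beside 69.0% of all IDR peaks. With replicate regions that contain the pooled summit the counts were 10, 8 and 6, beside 66.5% of all IDR peaks, the change being the hth inner promoter peak. In order of the replicate means the peaks ran from 67.8 at the distal dac peak down to 39.2 at the hth peak downstream of the inner start. The ranges of neighbours in that order overlapped: the distal dac peak (61.7 to 73.8), the eyg peak (52.4 to 67.2) and the eya peak (52.0 to 62.7). Within each replicate, however, the distal dac peak was above the eyg peak. The eyg peak was above the eya peak in replicate 1 and below it in replicate 3. The distal dac peak was above the weakest hth peak in each replicate.

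**Figure D5:**
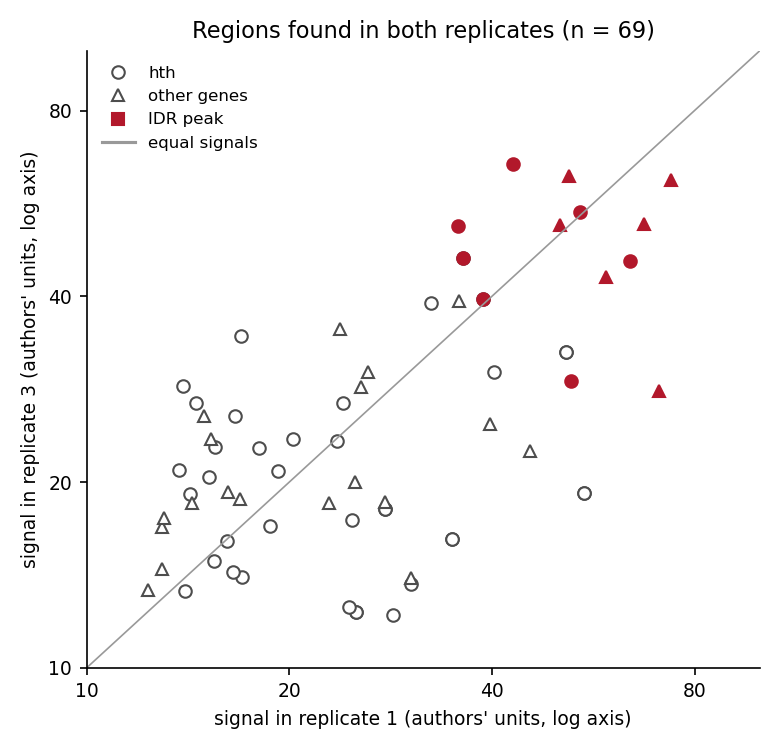
Signal in replicate 3 against signal in replicate 1, in the authors' units on log axes, for the 69 member regions found in both, with hth as circles, other genes as triangles and IDR peaks filled. The line marks equal signals; 35 regions lie above it and 34 below, 15 of the 69 include a replicate region that does not contain the pooled summit, and the filled triangle farthest below it is the ey promoter peak, at 70.9 and 28.1.

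Each replicate list also held regions at these genes that overlapped no pooled region, 25 of 115 in replicate 1 and 24 of 111 in replicate 3. At hth were 14 of those in replicate 1 and 12 of those in replicate 3, and only 1 in each replicate overlapped a region of the other. The same share over all regions of each replicate list was not computed. These counts can therefore not be called particular to these genes.

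Consensus words of DNA-binding proteins, 15 in all, were searched on both strands in the 201 bp window of every summit, as letters with no test. A match is not a shown binding site. The word TGACAG, bound by Hth and its relatives, was in 12 of 106 member windows (11.3%), beside 7.17% of all pooled windows. At hth itself it was in 9 of 63 (14.3%), among them the windows at the inner promoter and upstream of the gene printed above. The word TGATNNAT, bound by Exd with Hox proteins, was in 19 windows (17.9%), beside 12.9%. The So word TGATAC was in 6 (5.66%, beside 5.04%), among them the ey promoter peak. A TGATAC followed by AT also matches the Exd word, so these counts can overlap.

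The words of other DNA-binding proteins, some of which recruit Groucho, stood above the share of the whole list in some cases and below it in others. CACGTG, bound by Hairy-class proteins, was in 4 windows (3.77%, beside 2.71%), and their other word CACGCG in 1 (0.943%, beside 5.48%). The Runt word ACCACA was in 9 (8.49%, beside 8.28%) and the Tcf word CTTTGA in 16 (15.1%, beside 11.8%). The homeodomain core TAATTA was in 7 (6.60%, beside 13.1%) and the GATA word AGATAA in 10 (9.43%, beside 13.2%). The remaining words, GTGGGAA of Su(H), GGGNNTTCC of Dorsal, CAGGTAG of Zelda, GAGAGAG of GAGA factor, TATCGATA of DRE and TGAATGAA of Cic, were in 2, 1, 2, 5, 1 and 3 windows, beside 2.48%, 1.69%, 0.970%, 4.89%, 2.43% and 1.98% of all pooled windows in that order. The DRE word was in 1, the ey upstream peak. Among IDR peaks alone that is 1 of 13 (7.69%), beside 6.37% of all IDR peaks. The median GC content of the member windows was 40.0%, beside 40.3% for all pooled windows.

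Other genes of the same families and of the eye network were counted by the same rule, 22 in all, chosen with earlier results of these data known. Of these, 15 (68.2%) held a pooled region, beside 76.9% of all protein-coding genes, and 6 (27.3%) an IDR peak, beside 49.4%. Both shares were below those of all genes. Among the relatives of so, Six4 held 2 IDR peaks, the higher at 100.5 but 46 bp from the start of Pcif1, while Optix had no region. Of 6 further Pax genes only sv, the Pax2 gene, held IDR peaks, 2 of them, the higher at 182 with 50.4 in replicate 1 and 130.4 in replicate 3; the nearest start, 9619 bp away, was that of Cals. Thus paired-domain genes with an IDR peak were ey and eyg among the members and sv outside them.

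Among 5 other TALE genes, mirr of the Iroquois complex held an IDR peak of 137, 499 bp from its start, with 72.3 in replicate 1 and 66.2 in replicate 3. The gene achi held one of 83.3, 59 bp from the start of CG8569. Of 9 partners of the eye network, nmo, which encodes the Nemo kinase, was the most like hth in count, with 51 regions and 3 IDR peaks, the highest 139 and 25 bp from its start, with 81.8 and 59.0 in the replicates. The gene dan held 1 of 124, 287 bp from the start of lobo. The zinc-finger gene tsh, whose protein works with Hth and Ey, had 7 regions and no IDR peak, and ato, gl, danr and tio had no pooled region.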

How the data were processed

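The authors called regions in each replicate and in both pooled, and derived the IDR list, per the deposited manifest, which also names a control that was not analysed here. Which aligner, peak caller, settings and IDR threshold were used is not given in the sources used here. As deposited, each signal is the authors' own value; the deposited −log10 of a q value saturates, so regions were ranked by signal. Depth is unknown.

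Summits were assigned with Ensembl release 115 models, and sequence came from RefSeq Release 6 (both dm6); dm3 files were not used. Regions matched between lists by an overlap of at least 1 bp, taking the strongest region. Python 3.11.15, pandas 2.3.3, numpy 2.4.6 and matplotlib 3.10.9 were used, and the assignment, matching, distance and motif steps were checked on simulated data. With 1 group there was no contrast and no test. The genes, the companion genes and the motifs were chosen with earlier results of these data known. Named genes are the 9 members, with every IDR peak and the highest pooled region of each, the companion genes with an IDR peak, the nearest gene of each region described, and the 3 genes most like hth. Features named beyond these, such as weaker regions and genes without a region, were chosen after their values were seen. Alternatives were other flanks, assignment by interval, a stricter IDR list, each replicate alone, other start distances, a larger overlap and other motif windows.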

Additional observations from a re-analysis of the deposited data

How the results depend on the processing

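Of 44 alternative values, 31 stayed close to the values given above and 13 did not. With the gene body alone, IDR peaks fell from 13 to 6, genes with one from 5 to 1 (hth) and regions at a start from 15 to 5. The other peaks lay in the flanks, so these counts depend on counting the flanks. With only the stronger IDR peaks, above the median signal of 116 of the whole IDR list, 2 IDR peaks at 2 genes (dac and eyg) were left. They were 1.89% of the member regions. Such a cut lowers the count at large, and the share of all pooled regions that it leaves was not computed. With either replicate left out, IDR-sized lists held 9 to 13 peaks, at 5 genes each, and the pooled count of 106 became 111 to 115. A start distance of 1000 bp gave 26 regions (24.5%), beside 47.3% of all pooled regions. Of the 106 summit windows, 72 (67.9%) held at least 1 of the searched words, beside 62.9% of all pooled windows. With 50 bp on each side of the summit 44 did, and the share of all pooled windows at that width was not computed. The median log2 ratio of the replicates was -0.0176 in the gene body, 0.00611 with flanks of 1 kb, -0.0349 with 10 kb and -0.0176 both when a larger overlap was required and when the replicate region had to contain the pooled summit, an alternative chosen after seeing the data that left 61 of 69 regions in both replicates, so its sign was not stable around 0. No paired analysis was possible because the series has 1 group. The number of regions in each list, 30000, and the unknown depth limit what can be said of weaker regions.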
